A study of Mus musculus with 19 samples.

Results

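The genes described here are the 5 subunits of the transcription factor NF-kB (Rela, Nfkb1, Rel, Nfkb2 and Relb) and 5 genes whose proteins hold it back or modify it (Nfkbia, Nfkbie, Nfkbiz, Bcl3 and Tnfaip3), read from bulk RNA-seq of mouse bone marrow monocytes. They were chosen by symbol, with earlier results of these data known, and all 10 were found among the 33559 rows of the deposited gene table and among the 16791 genes tested. The study comprised 19 mouse samples. Of the 5 bulk libraries, 3 were of wild-type bone marrow monocytes labelled as treated with GCSF (granulocyte colony-stimulating factor, the cytokine that drives granulocyte production), and 2 were of wild-type bone marrow monocytes labelled as untreated. The other 14 samples, skin single cells of both genotypes (wild type and Cxcr2 knockout), are not used here. The labels give no strain, age, dose or time, do not say whether G-CSF was given to mice or to cells, and do not say how the monocytes were isolated or whether replicates came from separate animals. The p-values therefore measure only the spread between these libraries, which may be technical.

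NF-kB proteins bind DNA as dimers. In resting cells inhibitors with ankyrin repeats hold the dimers in the cytoplasm until a kinase complex marks an inhibitor for destruction (the canonical route, typical of Rela and the p50 product of Nfkb1) or triggers processing of the Nfkb2 precursor to p52 (the non-canonical route, typical of Relb). Several inhibitors are themselves NF-kB targets, so that activation is followed by resynthesis of its brakes, and in monocytes the pathway drives cytokine and chemokine genes after microbial or cytokine signals.

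Transcript levels were given as FPKM (fragments per kilobase of a gene, corrected for library depth), so that levels can be compared between genes of a library. Comparison between libraries assumes that the authors' scaling put them on a common scale. Summed over all rows, FPKM came to 586197 to 1577090 in G-CSF libraries. The sums were 392646 and 3299131 in untreated replicates 1 and 2. Other scalings are given below. All 10 genes had a positive log2 fold change with G-CSF over no G-CSF, against 56.3% of all genes tested and 59.9% of protein-coding ones. In 9 of 10 every G-CSF library lay above both untreated libraries, where 20.0% of all genes tested and 23.7% of protein-coding ones did so. The highest fold changes were those of Bcl3, Relb, Nfkbia and Nfkb2, and the lowest those of Nfkb1 and Rel. None of the 10 passed limma's Benjamini-Hochberg adjusted p threshold of 0.05 over all genes (0 higher and 0 lower, adjusted p from 0.179 to 0.678), a threshold passed by 0.00596% of all genes in the upward direction. At an unadjusted p under 0.05, 8 of 10 were higher and 0 lower, against 7.90% and 4.76% of all genes tested. With voom on recovered reads the adjusted test also called 0 of 10 and the unadjusted one 8. The median log2 fold change of the 10 was 1.20, beside 0.08 for all genes tested.

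**Figure D1:**
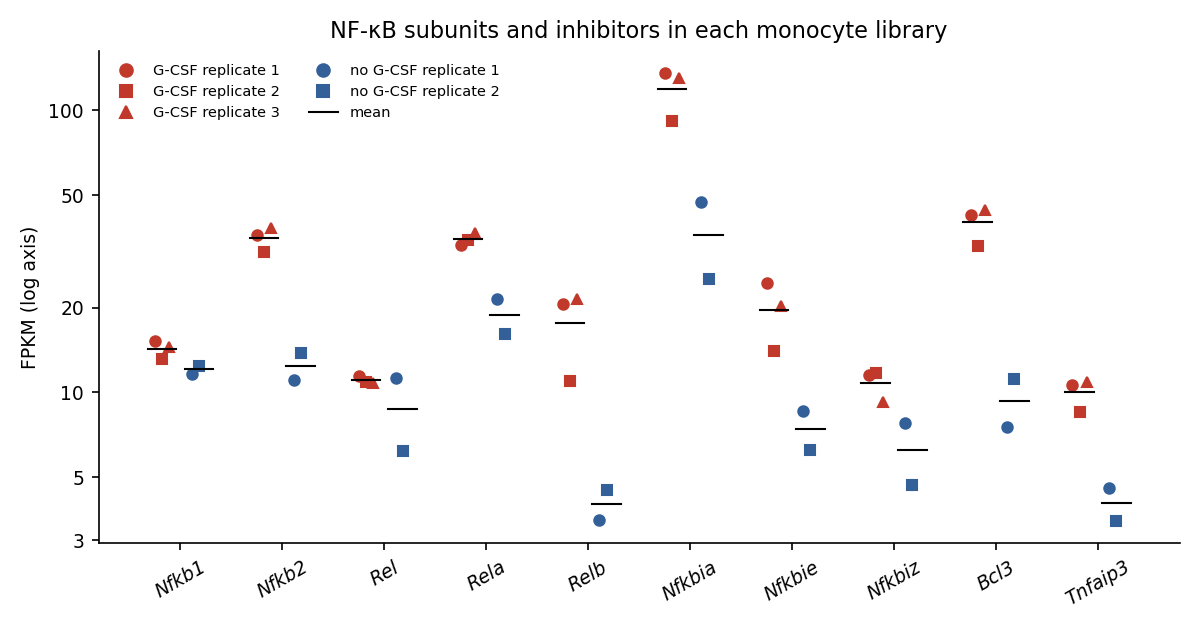
FPKM of each gene on a log axis, with 1 point per library (G-CSF in red on the left, no G-CSF in blue on the right) and a black bar at the group mean. Every G-CSF point lies above both untreated points for 9 genes, and Rel is the exception.

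Reads recovered from the steps of the FPKM values, a lower bound of depth, ranged from 2923773 in untreated replicate 2 to 6988609 in G-CSF replicate 1, and the 10 genes rested on 61 to 1873 reads per library. All 8 monocyte markers examined (Csf1r and Ly6c2 among them) were detected. Their summed level was 385 to 495 FPKM in G-CSF libraries and 228 and 294 FPKM in untreated ones, and 6 of the 8 were higher without overlap. Of all genes tested, 20.0% were higher and 11.9% lower without overlap. The 8 neutrophil markers summed to 4068 to 6147 FPKM in treated libraries, between the 10931 and 2050 FPKM of the untreated ones, a sum carried mostly by Ngp, S100a8 and S100a9. Among them Camp was lower without overlap (66.8 to 208 FPKM in treated, 1187 and 402 FPKM in untreated libraries) and Mmp8 higher (163 to 259 FPKM, against 159 and 17.0 FPKM). The 5 markers of eosinophils, basophils and mast cells summed to 48.98 to 66.5 FPKM in treated and 89.0 and 185 FPKM in untreated libraries, with 2 of the 5 lower without overlap. The 7 B cell markers summed to 57.7 to 77.1 FPKM in treated and 201 and 107 FPKM in untreated libraries, with 3 of the 7 lower without overlap. The 6 T and NK cell markers summed to at most 3.05 FPKM in any library, with 3 of the 6 lower without overlap and Cd3g listed at 0 in 4 of 5. The 5 dendritic cell markers (17.0 to 28.7 FPKM in treated, 17.99 and 22.8 FPKM in untreated libraries) and the 6 erythroid and megakaryocyte markers (471 to 522, against 475 and 788 FPKM) overlapped in sum, but 2 of the dendritic markers and 1 of the erythroid and megakaryocyte markers were lower without overlap. These included Siglech of plasmacytoid dendritic cells (0.653 to 1.88 FPKM in treated, 4.45 and 2.90 FPKM in untreated libraries) and Itga2b of megakaryocytes (13.1 to 14.2 FPKM, against 33.8 and 75.6 FPKM). Lower counts of 1 in 6 here, and of 1 in 8 among the neutrophil markers, are near the 11.9% of all genes tested. The marker counts include genes too low to be tested, which the shares of all genes leave out. All 6 T and NK cell markers were too low to be tested, and of the 2 lower dendritic markers 1 was tested. For 11 immediate early and stress genes that also respond to cell handling, the sum was 278 to 316 FPKM in treated and 136 and 177 FPKM in untreated libraries, with 10 of 11 higher without overlap. The monocyte, B cell, eosinophil and early response sums and these single markers thus separated the groups, as 9 of the NF-kB genes did. Their part in the results below was not tested, and in bulk RNA fewer cells of a type and less RNA per cell cannot be told apart.

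Among the canonical subunits, Rela, the p65 subunit that carries a strong activation domain, was the most abundant. It measured 33.4, 34.6 and 36.6 FPKM in G-CSF replicates 1, 2 and 3, against 21.4 and 16.2 FPKM in untreated replicates 1 and 2. The lowest G-CSF library was 1.56-fold above the highest untreated one. Rela differed by 0.87 ± 0.26 on the log2 scale (SE; adjusted p = 0.318 by limma), which is G-CSF over no G-CSF on log2(FPKM + 1) here and below. Its locus on chromosome 19 runs from 5637483 to 5648130 on the plus strand of GRCm38 (ENSMUSG00000024927.8).

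Nfkb1 encodes p105, the precursor of the DNA-binding subunit p50. Its levels were 15.2, 13.2 and 14.5 FPKM in the treated libraries, against 11.7 and 12.5 FPKM in the untreated ones. The groups did not overlap, but the gap was 1.06-fold, and the fitted log2 difference was 0.22 ± 0.23 (SE; adjusted p = 0.678 by limma), the smallest of the 10. Nfkb1 spans 135584655 to 135691547 on the minus strand of chromosome 3 and, with 12061 exonic bases, is the longest transcript unit of the group.

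Rel encodes c-Rel, a subunit best known from lymphocytes and also present in myeloid cells. It measured 11.4, 10.9 and 10.8 FPKM in treated and 11.2 and 6.18 FPKM in untreated monocytes. The 3 G-CSF libraries were nearly level and enclosed within their range the value of untreated replicate 1, so that the groups overlapped and untreated replicate 2 alone was low. For Rel the fitted difference was 0.36 ± 0.30 (log2, SE; limma adjusted p = 0.608), and it was -0.021 without untreated replicate 2 and 0.75 without untreated replicate 1.

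The non-canonical pair had larger fold changes than these. Nfkb2 encodes p100, which acts as an inhibitor until it is cut to p52. It measured 36.1, 31.5 and 38.4 FPKM with G-CSF, against 11.1 and 13.8 FPKM without. The lowest G-CSF value was 2.29-fold above the highest untreated one, the G-CSF libraries spread by 1.22-fold, and the fitted log2 difference was 1.44 ± 0.26 (SE; adjusted p = 0.212 by limma). Nfkb2 occupies 46304320 to 46312385 on the plus strand of chromosome 19. Of its 4584 exonic bases, 830 overlap exons of genes on the other strand (Psd and AC114539.1), and whether the authors' counting used strand is not given in the sources used here. Psd itself stood at 2.67 to 3.17 FPKM in the treated libraries and at 0.930 and 1.93 FPKM in the untreated ones.

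Relb, the partner of p52, measured 20.6, 11.01 and 21.4 FPKM in G-CSF libraries and 3.54 and 4.53 FPKM in untreated libraries. G-CSF replicate 2 was low among the treated libraries, yet still 2.43-fold above the highest untreated value. On the log2 scale the difference was 1.84 ± 0.35 (SE; limma adjusted p = 0.227). The untreated values rest on 128 and 61 reads. Relb spans 19606217 to 19629438 on the minus strand of chromosome 7, and 179023 bases separate it from Bcl3 on the same strand.

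**Figure D2:**
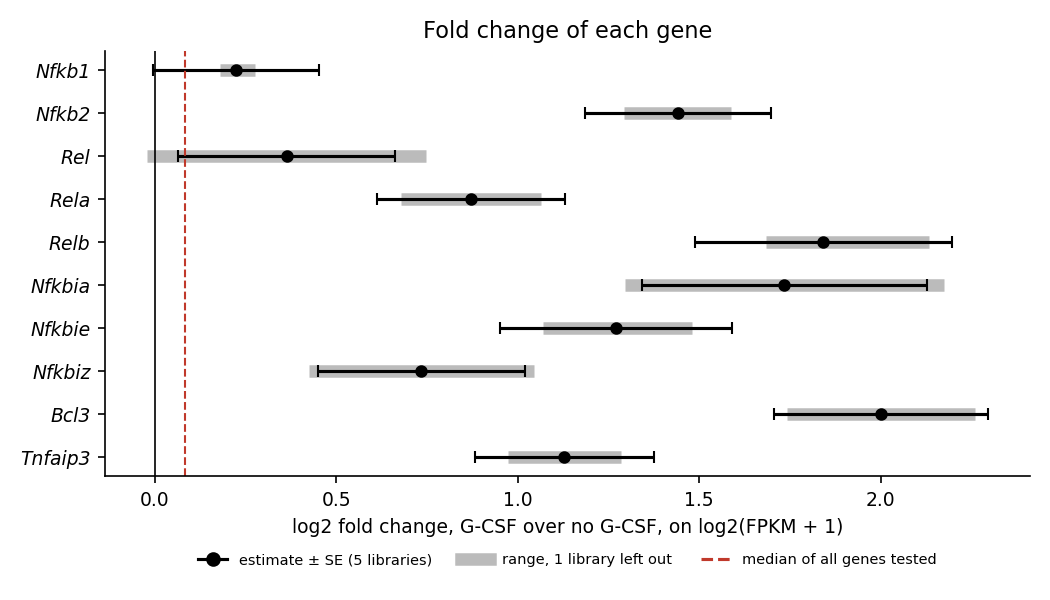
The log2 fold change of each gene on the log2(FPKM + 1) scale (points, with bars for the SE over 5 libraries), the range when any 1 library was left out (grey) and the median of all genes tested (dashed, 0.08). Nfkb1 and Rel lie nearest to that median, and Bcl3 and Relb farthest from it.

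Of the cytoplasmic inhibitors, Nfkbia encodes IkB-alpha, the inhibitor that is destroyed within minutes of stimulation and remade from an NF-kB-driven promoter. It was the most abundant of the 10 genes in both groups, with 135.3, 91.9 and 130.3 FPKM in the treated libraries and 47.3 and 25.3 FPKM in the untreated ones. Its lowest G-CSF library was 1.94-fold above the highest untreated one, although the untreated libraries differed from each other by 1.87-fold. Nfkbia had a fitted log2 difference of 1.73 ± 0.39 (SE; limma adjusted p = 0.258). Nfkbia occupies 55489410 to 55492647 on the minus strand of chromosome 12.

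Nfkbie, which encodes IkB-epsilon, a slower inhibitor of Rela and c-Rel, had 24.4, 14.05 and 20.3 FPKM with G-CSF, against 8.58 and 6.25 FPKM without. Again G-CSF replicate 2 was the lowest of the treated libraries, and the groups did not overlap. Their difference came to 1.27 ± 0.32 (log2, SE; limma adjusted p = 0.278). Nfkbie occupies 45555703 to 45563169 on the plus strand of chromosome 17.

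The nuclear IkB proteins, which modify bound dimers in place of holding them in the cytoplasm, lay far apart in fold change. Bcl3 binds p50 and p52 homodimers and is also a target of STAT3 signalling. It measured 42.7, 33.2 and 44.4 FPKM in treated monocytes, against 7.52 and 11.2 FPKM in untreated ones. The lowest G-CSF library was 2.96-fold above the highest untreated one, the widest gap among the 10 genes. Its log2 fold change, 2.0 ± 0.29 (SE), was also the largest, and its unadjusted p ranked 49 among the 16791 genes tested (limma adjusted p = 0.179). Bcl3 spans 19808462 to 19822770 on the minus strand of chromosome 7. An antisense gene, Gm16175, overlaps 161 of its 2475 exonic bases and itself stood at 24.3 to 33.2 FPKM in treated and at 7.37 and 2.33 FPKM in untreated libraries. Without known strand, reads of the 2 genes cannot be told apart there.

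Nfkbiz encodes IkB-zeta, an inducible cofactor for secondary inflammatory genes. The treated libraries held 11.5, 11.7 and 9.27 FPKM of it, the untreated ones 7.78 and 4.71 FPKM. The groups were separate, with a 1.19-fold gap. Its log2 difference of 0.73 ± 0.29 (SE; limma adjusted p = 0.384) was 0.42 without untreated replicate 2 and 1.04 without untreated replicate 1. Nfkbiz spans 55811375 to 55838899 on the minus strand of chromosome 16.

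Tnfaip3 encodes A20, a ubiquitin-editing enzyme that ends signalling upstream of the kinase complex. It was the least abundant of the 10 genes with G-CSF, at 10.7, 8.54 and 10.9 FPKM, against 4.60 and 3.51 FPKM without. The gap between groups was 1.86-fold, and the fitted log2 difference was 1.13 ± 0.25 (SE; adjusted p = 0.255 by limma). Tnfaip3 spans 19000910 to 19015657 on the minus strand of chromosome 10.

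Across the genes, 6 of 10 had a log2 fold change of at least 1, where 6.71% of all genes tested did. G-CSF replicate 2 was the lowest of the treated libraries for 7 of the 10 genes. Untreated replicate 2 was below untreated replicate 1 for 6 genes and above it for Nfkb1, Nfkb2, Relb and Bcl3, with ratios of replicate 1 to replicate 2 from 0.672 (Bcl3) to 1.87 (Nfkbia). When untreated replicate 1 was left out, 9 of 10 genes passed the adjusted threshold as higher, all but Nfkb1. That fit had a single untreated library, assumed to vary like the treated ones, and called 16.1% of all genes higher and 11.9% lower, and leaving out any other library called 0 of 10. When protein-coding genes alone were tested, 0 of 10 passed, Bcl3 (adjusted p = 0.0623), Nfkb2 (0.0837) and Relb (0.0915) having the smallest limma adjusted p, against 0.285% of those genes called higher and 0.0285% lower. Of the unadjusted calls over all genes, 1327 were higher and 800 lower. Under quantile normalization these were 989 and 977, and with libraries rescaled to the sum of protein-coding genes 947 and 888, while 6 of the 10 genes in the first of these settings and 7 in the other were at an unadjusted p under 0.05.

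The order of levels differed between the groups. With G-CSF it ran, from highest to lowest mean, Nfkbia (119 ± 23.8 FPKM), Bcl3 (40.1 ± 6.05), Nfkb2 (35.4 ± 3.49), Rela (34.9 ± 1.65), Nfkbie (19.6 ± 5.20), Relb (17.7 ± 5.77), Nfkb1 (14.3 ± 1.01), Rel (11.1 ± 0.326), Nfkbiz (10.8 ± 1.36) and Tnfaip3 (10.0 ± 1.31; SD, n = 3). In this order Nfkbia and Bcl3, Rela and Nfkbie, and Nfkb1 and Rel had separate ranges, and the other neighbours overlapped. Without G-CSF the order was Nfkbia (36.3 ± 15.6 FPKM), Rela (18.8 ± 3.71), Nfkb2 (12.4 ± 1.93), Nfkb1 (12.1 ± 0.557), Bcl3 (9.35 ± 2.60), Rel (8.71 ± 3.57), Nfkbie (7.42 ± 1.65), Nfkbiz (6.25 ± 2.17), Tnfaip3 (4.06 ± 0.768) and Relb (4.04 ± 0.697; SD, n = 2). In this order Nfkbia and Rela, Rela and Nfkb2, Nfkb1 and Bcl3, and Nfkbiz and Tnfaip3 had separate ranges, and the other neighbours overlapped. By mean, Relb thus stood in place 6 with G-CSF and last without it, where its range overlapped that of Tnfaip3. Bcl3 stood by mean in place 2 with G-CSF and in place 5 without it.

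Ratios between genes of the same library do not depend on how libraries were scaled, and were taken after the levels had been seen. Relative to Rela, 6 of the other 9 genes (Nfkb2, Relb, Nfkbia, Nfkbie, Bcl3 and Tnfaip3) were higher in every G-CSF library than in both untreated ones, Nfkb1 and Rel were lower in every G-CSF library, and Nfkbiz overlapped. Bcl3 stood at 1.28, 0.958 and 1.21 times the FPKM of Rela with G-CSF and at 0.351 and 0.693 times without. For Relb the ratio to Rela was 0.618, 0.318 and 0.583 with G-CSF and 0.166 and 0.280 without, so that G-CSF replicate 2 came close to the higher untreated library. Nfkbia stood at 4.06, 2.65 and 3.56 times Rela with G-CSF and at 2.21 and 1.56 times without. These ratios are given as a description, with no test. The share of all genes that separated in the same ratio was not counted, so these counts have no background beside them. Shares given for FPKM do not apply to ratios, as Rela itself lay higher with G-CSF.

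**Figure D3:**
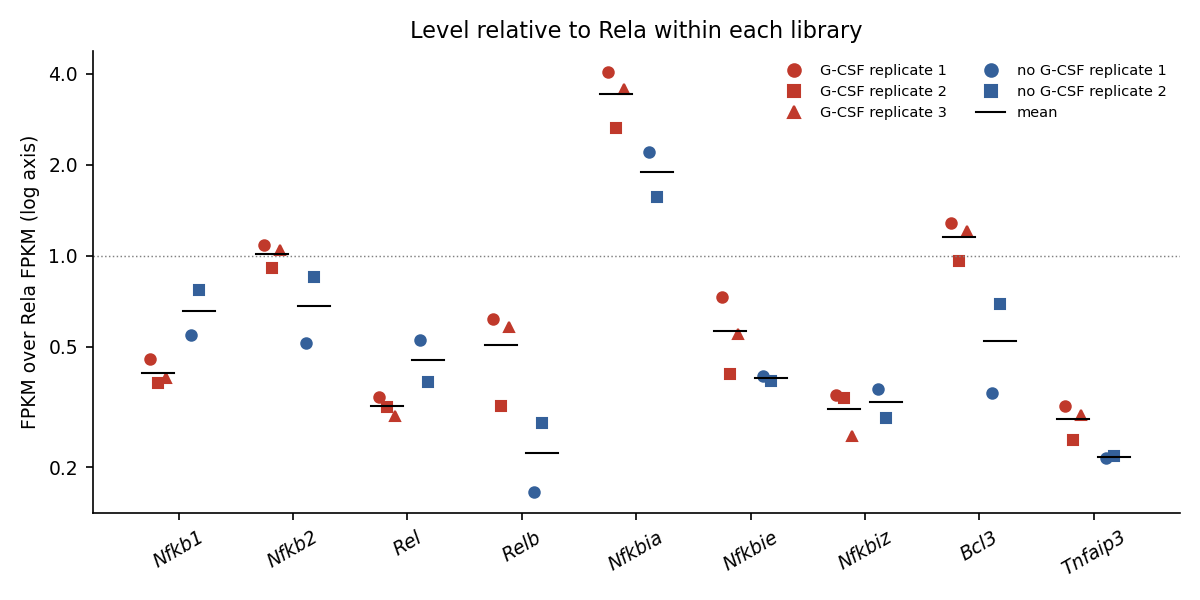
FPKM of each gene divided by that of Rela in the same library, on a log axis (G-CSF in red on the left, no G-CSF in blue on the right, black bar at the mean). Bcl3, Relb and Nfkbia lie higher in the G-CSF libraries, Nfkb1 and Rel lower, and Nfkbiz overlaps.

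The make-up of the subunit transcripts can be given the same way. The 5 subunits summed to 117, 101 and 122 FPKM with G-CSF and to 58.9 and 53.1 FPKM without. Nfkb2 and Relb together made up 48.6%, 42.0% and 49.1% of that sum with G-CSF, against 24.8% and 34.5% without. The share of Nfkb1 was 13%, 13% and 11.9% with G-CSF and 19.8% and 23.5% without, while that of Rela overlapped between the groups (28.6 to 34.2% with G-CSF, 36.3 and 30.4% without). For the 2 precursors, the Nfkb2 to Nfkb1 ratio was 2.38, 2.39 and 2.65 with G-CSF and 0.947 and 1.11 without. Bcl3 over Nfkb1, a nuclear IkB over the precursor of its binding partner p50, was 2.81, 2.52 and 3.07 with G-CSF and 0.644 and 0.898 without. Nfkbia and Nfkbie together amounted to 1.37, 1.05 and 1.24 times the subunit sum with G-CSF and 0.949 and 0.593 times without.

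Csf1r, which encodes the M-CSF receptor of monocytes, also lay higher with G-CSF (188 to 255 FPKM, against 111 and 99.0 FPKM without). Levels were therefore set against it as well, within each library. Then 5 of the 10 genes (Nfkb2, Relb, Nfkbia, Bcl3 and Tnfaip3) were higher in every G-CSF library, Nfkb1 and Rel were lower, and Rela, Nfkbie and Nfkbiz overlapped. Here too the share of all genes that separated in the same ratio was not counted. Bcl3 per Csf1r was 0.181, 0.176 and 0.174 with G-CSF and 0.0676 and 0.113 without. Tnfaip3 per Csf1r was 0.0451, 0.0454 and 0.0429 with G-CSF and 0.0414 and 0.0355 without, a far smaller gap than that of its FPKM.

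The promoters of these genes are shown because several are textbook NF-kB targets and the fold changes differed between genes. Of the 10 genes, 7 matched the RefSeq promoter table (GRCm38.p6), with 10 windows of 300 bases that run from 250 bases before an annotated start to 50 after it, and Nfkb1, Relb and Nfkbiz were not matched. Each window was searched on both strands for the kB-like letters GGGNNNTTCC and for the looser GGGNNNNNCC, which contains every match of the stricter one. The motifs were chosen after the sequences had been seen. The stricter letters occurred in 8 of the 10 windows, from 5 genes (Nfkb2, Rel, Nfkbia, Nfkbie and Tnfaip3), where 5.56% of all 32851 windows in the table held them. Of the 3 Nfkb2 windows, 2 overlap and share a match. The looser letters occurred in 10 of 10 windows and in 50.8% of all. The windows of these genes were richer in G and C (median 65.2%) than all windows (52.7%). The windows below are written 5′ to 3′ on the gene's strand, with stricter matches on either strand in capitals. They are those of the canonical target Nfkbia (chr12:55492598-55492897, minus strand), the most upstream start of the non-canonical Nfkb2 (chr19:46304487-46304786, plus strand), the upstream start of Tnfaip3 (chr10:19015361-19015660, minus strand) and, as a gene whose groups overlapped, Rel (chr11:23770920-23771219, minus strand).
Nfkbia: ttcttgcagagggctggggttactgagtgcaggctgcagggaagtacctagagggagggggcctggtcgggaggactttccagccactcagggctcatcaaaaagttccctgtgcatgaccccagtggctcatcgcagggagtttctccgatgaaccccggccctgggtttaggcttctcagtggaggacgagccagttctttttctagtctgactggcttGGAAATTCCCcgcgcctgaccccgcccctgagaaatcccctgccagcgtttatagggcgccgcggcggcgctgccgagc
Nfkb2: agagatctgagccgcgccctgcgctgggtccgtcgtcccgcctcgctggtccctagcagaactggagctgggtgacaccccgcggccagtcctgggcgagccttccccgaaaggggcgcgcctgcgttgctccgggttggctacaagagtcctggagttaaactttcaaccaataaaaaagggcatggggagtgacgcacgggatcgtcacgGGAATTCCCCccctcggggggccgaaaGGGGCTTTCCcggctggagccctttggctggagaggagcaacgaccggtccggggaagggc
Tnfaip3: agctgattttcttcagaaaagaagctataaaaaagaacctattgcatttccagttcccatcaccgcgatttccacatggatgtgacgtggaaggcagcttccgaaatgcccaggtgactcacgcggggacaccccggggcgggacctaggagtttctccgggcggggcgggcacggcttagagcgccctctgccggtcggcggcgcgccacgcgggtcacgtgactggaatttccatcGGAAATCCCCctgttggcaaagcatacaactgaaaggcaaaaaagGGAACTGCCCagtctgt
Rel: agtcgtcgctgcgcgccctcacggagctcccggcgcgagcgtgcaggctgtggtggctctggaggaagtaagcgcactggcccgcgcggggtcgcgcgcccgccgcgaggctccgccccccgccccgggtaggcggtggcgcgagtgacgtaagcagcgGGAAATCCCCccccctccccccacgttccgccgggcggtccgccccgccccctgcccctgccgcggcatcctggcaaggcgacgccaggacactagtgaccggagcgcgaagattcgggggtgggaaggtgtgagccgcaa

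The match in Nfkbia ran from 29 to 20 bases before the start. The 2 matches of the Nfkb2 window lay 38 to 29 and 11 to 2 bases before its start. In the Tnfaip3 window one lay 12 to 3 bases before the start, and the other 33 to 42 bases into the transcript. Rel carried the 10 letters GGAAATCCCC, 91 to 82 bases before its start, and Tnfaip3 carried the same 10 letters. Rel and Tnfaip3 therefore shared a match while their log2 fold changes were 0.36 and 1.13. The windows of Bcl3 and Rela held no stricter match, which says only that these letters are not within these 300 bases.

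**Figure D4:**
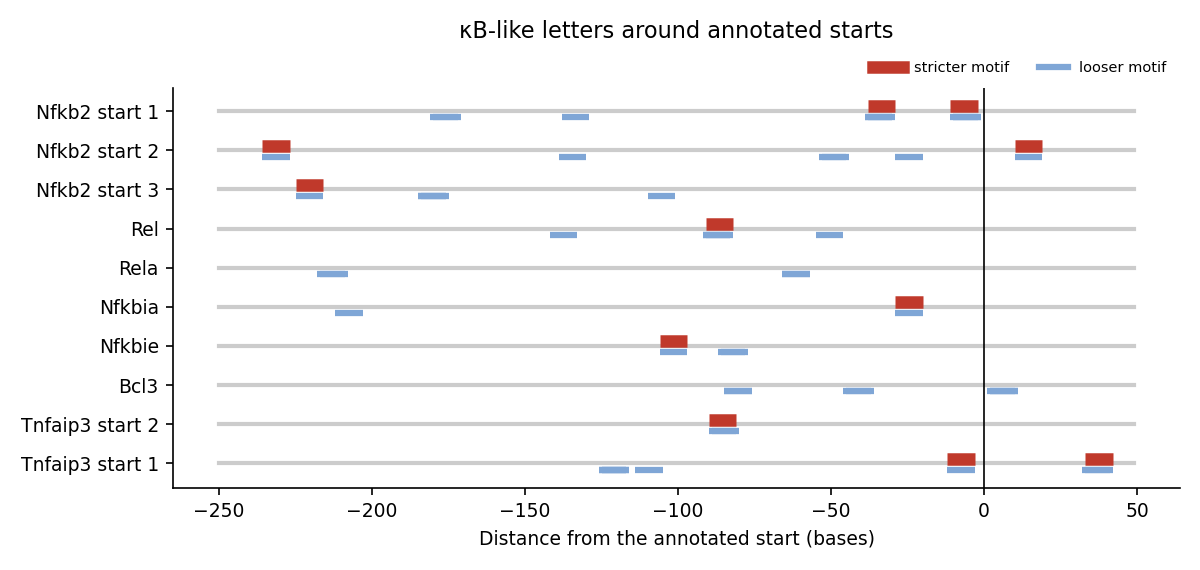
Position of kB-like letters in the 10 windows (grey lines), by distance in bases from the annotated start at 0, with stricter matches in red above the line and looser ones in blue below it. Stricter matches appear in 8 windows. The windows of Nfkbia and of the upstream starts of Nfkb2 and Tnfaip3 include one within 38 bases before it.

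The rest of the pathway was read out of the same test through 6 lists by role. Of their 96 genes, 90 were tested, 77 had a positive log2 fold change (56.3% of all genes tested did), and 0 passed the adjusted threshold in either direction. At an unadjusted limma p under 0.05, 30 were higher and 1 lower, where 7.90% and 4.76% of all genes tested were. With no overlap between groups, 46 were higher and 2 lower, where 20.0% and 11.9% of all genes tested were. The median log2 fold change was 0.48, beside 1.20 for the 10 genes and 0.08 for all genes tested. When protein-coding genes alone were tested, 5 of them passed as higher (Saa3, Csf1, Nos2, Il1b and Cd14, with limma adjusted p of 0.0249 to 0.0438), and voom on recovered reads called 1 (Saa3).

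Receptors that feed NF-kB had 10 of 12 tested genes positive, with a median log2 fold change of 0.68. By unadjusted limma p, 5 were higher and 0 lower, where 7.90% and 4.76% of all genes tested were. Cd14, the co-receptor for lipopolysaccharide, measured 145.1, 51.8 and 119.6 FPKM in the treated libraries and 4.97 and 7.33 FPKM in the untreated ones (limma adjusted p = 0.162), and here too G-CSF replicate 2 was low. The bacterial lipopeptide receptor Tlr2 averaged 54.8 ± 12.1 FPKM with G-CSF (SD, n = 3) and 8.65 ± 4.92 FPKM without (SD, n = 2). Tnfrsf1b, a TNF receptor and the most abundant gene of the list, averaged 173 ± 2.79 FPKM with G-CSF and 88.7 ± 11.7 FPKM without, or 0.96 ± 0.30 on the log2 scale (SE; limma adjusted p = 0.337).

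Signal carriers had smaller differences. Adaptors and ubiquitin ligases had 21 of 23 genes positive, with a median of 0.32. By unadjusted p 3 were higher and 0 lower, where 7.90% and 4.76% of all genes tested were. These 3 were Irak4, the kinase next to Myd88 (15.0 ± 2.71 FPKM with G-CSF against 6.94 ± 1.76 without), the ubiquitin ligase Birc3 (17.8 ± 2.31 against 6.48 ± 4.93) and the low Traf1 (1.05 ± 0.420 against 0.165 ± 0.0945; SD, n = 3 and 2). Myd88, the most abundant of the list, was split by the untreated libraries, at 53.1, 66.6 and 56.8 FPKM in treated and 19.7 and 81.3 FPKM in untreated libraries. The kinases that carry the signal had 9 of 12 genes positive, 1 higher by unadjusted p and 0 lower, with a median of 0.26. A count of 1 in 12 is near the 7.90% of all genes tested. The one was Ikbke, an inducible relative of the IkB kinases, at 23.3, 18.9 and 25.2 FPKM in treated libraries, against 8.74 and 10.2 FPKM in untreated ones (1.16 ± 0.26 on the log2 scale, SE; limma adjusted p = 0.255). Map3k8, Tbk1 and Map3k3 had log2 fold changes of 0.81, 0.73 and -0.20.

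Inhibitors other than the 10 genes formed 2 lists. The first list held 7 genes, 6 that restrain nuclear entry or subunit stability and the nuclear IkB gene Nfkbid. Its median of 0.06 was the value of Nfkbid itself. By unadjusted p 1 of the 7 was higher and 0 lower, where 7.90% and 4.76% of all genes tested were. The higher gene was Nfkbib, encoding IkB-beta, at 15.5, 13.2 and 16.2 FPKM in treated libraries and 6.99 and 10.9 FPKM in untreated ones (0.71 ± 0.28 on the log2 scale, SE; limma adjusted p = 0.384). Nfkbid, which encodes IkBNS and was the most abundant of the list, measured 29.3, 30.8 and 29.7 FPKM in treated and 27.0 and 30.6 FPKM in untreated libraries, with overlapping groups. Pdlim2 and Nfkbil1 had log2 fold changes of 0.55 and -0.30. The 14 other feedback genes had 12 positive, 5 higher and 0 lower, with a median of 0.53. They were led by the A20-binding proteins Tnip3 (2.13 ± 0.631 FPKM with G-CSF, 0.417 ± 0.0659 without) and Tnip1 (26.7 ± 5.15 with, 12.1 ± 0.221 without), and by N4bp1 (18.9 ± 1.90 with, 7.30 ± 3.77 without; SD, n = 3 and 2). Trafd1, the most abundant, had a log2 fold change of 0.02.

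Textbook target genes had the highest median, 1.78, with 20 of 22 tested genes positive. By unadjusted limma p, 15 were higher and 1 lower, where 7.90% and 4.76% of all genes tested were. The list was chosen with earlier results of these data known, so its rank among the lists is a description only. Nos2, the inducible nitric oxide synthase, measured 12.2, 23.5 and 9.61 FPKM in treated libraries, against 0.0727 and 0.390 FPKM in untreated ones (limma adjusted p = 0.131). The macrophage growth factor gene Csf1 averaged 26.6 ± 5.04 FPKM with G-CSF and 3.94 ± 0.788 FPKM without (SD, n = 3 and 2; limma adjusted p = 0.131), and Saa3, an acute-phase protein gene, had the largest log2 fold change at 6.80 ± 0.69 (SE; limma adjusted p = 0.107). Lcn2, the most abundant target, overlapped between the groups, at 276 to 382 FPKM in treated and 357 and 55.1 FPKM in untreated libraries. The 1 lower gene, Cd83, a maturation marker of dendritic and B cells named after its values were seen, measured 2.35, 3.20 and 2.23 FPKM in treated libraries, against 13.2 and 5.38 FPKM in untreated ones. The other 5 of the 27 target genes listed (Il6, Il12b, Cxcl1, Cxcl3 and Ccl5) were below the filter on low values. Of these, Cxcl3 was higher without overlap, and Il6, Il12b, Cxcl1 and Ccl5 overlapped between the groups.

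**Figure D5:**
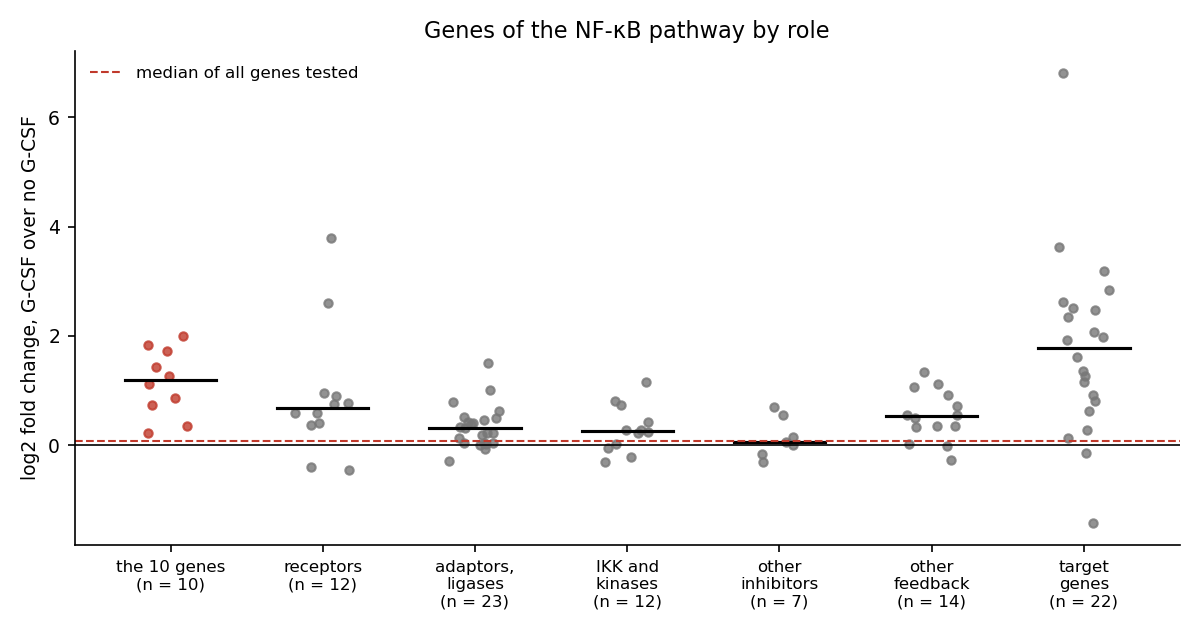
The log2 fold change of each tested gene (points) by role in the pathway, with a black bar at each median and a dashed line at the median of all genes tested. The lists were chosen with earlier results of these data known. The medians are 1.20 for the 10 genes, 0.68 for receptors, 0.32 for adaptors and ligases, 0.26 for kinases, 0.06 for other inhibitors, 0.53 for other feedback genes and 1.78 for target genes.

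For each of the 10 genes, the closest pattern was sought among the other 9 and the 90 pathway genes (99 candidates) as the smallest root mean square difference of log2(FPKM + 1), centred on each gene's mean, over the 5 libraries. Bcl3 was closest to Relb (0.21 on the log2 scale), and Relb to Sod2 (0.15), the mitochondrial superoxide dismutase. Nfkb2 was closest to Ikbke (0.15), Nfkbie to Tnip3 (0.14), Tnfaip3 to Irak4 (0.09), Nfkbiz to the lipopolysaccharide receptor Tlr4 (0.11) and Rela to Tnfrsf1b (0.08). Nfkbia was closest to N4bp1 at 0.22, the widest of these distances. Nfkb1 was closest to Malt1 and Rel to the deubiquitinase Cyld (both 0.04). These distances describe 5 libraries that share the same group difference and carry no test.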

How the data were processed

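The values were FPKM deposited by the authors, 1 column per library, and every column matched 1 labelled sample. Per the submitters' processing notes the build is mm10, and the one tool named there is Cell Ranger 5.0.1, made for single cells. The protocol attached to the monocyte labels is that of the skin samples, and the 14 skin samples were not analysed here. The aligner, counter, annotation and strandedness of the bulk libraries are not given in the sources used here, and the divisor behind the deposited FPKM is not stated. FPKM times the exon length of GENCODE M21 (GRCm38) gave whole reads, within 0.001, in all libraries for 94.3% of the rows matched by symbol, including all 10 genes. Intervals for counting error were not added to levels. For a single gene such error can exceed the replicate spread. Rel with G-CSF, for instance, had an SD of 0.326 on a mean of 11.1 FPKM, from 605 to 793 reads. Over all genes together the replicate spread was the larger. The chi-square of the reads was at least 7.88 times its degrees of freedom for every pair of replicates, so no pair agreed within sampling noise. Separate preparations of one sample could also differ by more than that. Coordinates are those of GENCODE M21.

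Genes that reached 1 FPKM in 2 or more libraries (16791) were tested with limma 3.58.1 (R 4.3.3) on log2(FPKM + 1), with a trend, two-sided, with 3 residual degrees of freedom and Benjamini-Hochberg adjustment over all genes tested. The pseudocount of 1 understates fold changes of low genes. The test was checked on simulated data with independent noise, in which 200 genes were changed. The adjusted test recovered 47% of genes given a log2 change of 2 and 90% of those given 4. It made 6 false calls among 16591 unchanged genes. A gene with a log2 change of 2 or less can therefore go uncalled in a design of this size. Other steps used Python 3.11.15 with pandas 2.3.3.

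The gene lists, like the 10 genes, were chosen with earlier results of these data known. Besides the 10 genes, the text names from each pathway list up to 3 genes with the smallest p and the gene with the highest mean, and for each of the 10 the gene of closest pattern. The target genes below the filter on low values are named too. Alternatives were other pseudocounts, filters and scalings, protein-coding genes only, limma without trend or robust, voom on recovered reads, a replicate block, and each library left out. Counts at an unadjusted p and ratios within a library were added after the data were seen.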

Additional observations from a re-analysis of the deposited data

How the results depend on the processing

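Of 170 fold changes of the 10 genes under alternatives, 169 kept their direction, and that of Rel ranged from -0.021 without untreated replicate 2 to 0.75 without untreated replicate 1. Many of the 170 could not change. Other filters, protein-coding genes only, and limma without trend or robust leave a gene's fold change the same by construction. The replicate block gave the same fold changes as leaving out G-CSF replicate 3. The adjusted test called 0 of the 10 genes in every alternative that kept all libraries, and 0 to 9 when 1 library was left out (9 without untreated replicate 1). The pathway lists had 5 calls with protein-coding genes only, 1 with voom, and 0 to 35 when 1 library was left out (35 without untreated replicate 1). Over all genes, the 1 call (Socs3) became 3 with a pseudocount of 0.1, 2 with a minimum FPKM of 5, 2 without trend, 10 with voom and 33 with protein-coding genes only. It became 0 with a pseudocount of 5, no filter, quantile normalization, median centring, rescaling to protein-coding genes or the replicate block, and 0 to 4700 when 1 library was left out (4700 without untreated replicate 1). Testing protein-coding genes only adjusts over fewer genes by construction. The cause of the other shifts was not tested. With the replicate block, 5 of the 10 genes were higher at an unadjusted limma p under 0.05, in place of 8 without it. Of all genes tested, 3.36% were higher at that threshold with the block and 7.90% without it. The labels do not say whether equal replicate numbers mark a pairing. Deviations from the group means correlated at -0.07 over genes for number 1 and at -0.23 for number 2. With 2 untreated libraries the deviations of one mirror those of the other, so these correlations cannot decide the question. When G-CSF replicate 1, 2 or 3 was left out, 6, 7 and 6 of the 10 genes were higher at an unadjusted limma p under 0.05. The shares of all genes tested that were higher at that threshold were 3.12%, 7.72% and 3.38%. Untreated replicate 2, with 2923773 recovered reads, limits the precision of low genes, and with 2 untreated libraries the spread of that group is poorly known.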
